A study of Sus scrofa with 60 samples.

Results

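The response of the neonatal pig liver to bile duct ligation (BDL) was compared between pigs given parenteral nutrition with a soy lipid emulsion (SLE) and pigs fed enterally (ENT). For each named gene, 1 model estimated the difference of 2 responses, (SLE-BDL minus SLE-sham) minus (ENT-BDL minus ENT-sham), on a log2 scale, called the SLE minus ENT difference here. The libraries were chosen by their diet and surgery labels alone, and 43 of the 60 liver libraries of the series belonged to these 4 groups. Of 30335 named genes, 16210 had enough counts to be tested. A positive difference means that BDL raised a gene more, or lowered it less, in SLE pigs than in ENT pigs, and a negative one means the opposite.

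The pigs were newborns of both sexes delivered by Caesarean section, and RNA-seq of poly-A RNA was done on liver collected on day 14. ENT-sham pigs (n = 12 libraries) had their abdomen opened and the liver handled, and ENT-BDL pigs (n = 10 libraries) had the cystic and common bile ducts tied, and both were weaned from parenteral nutrition onto a milk replacer formula. SLE-sham (n = 10 libraries, with 9 pig identifiers, since replicates 9 and 10 carry the same one) and SLE-BDL (n = 11) pigs had the same operations and stayed on parenteral nutrition with Intralipid, an emulsion of soybean oil. Pigs given parenteral nutrition with a mixed lipid emulsion (MLE, SMOFlipid), 9 with a sham operation and 8 with BDL, took no part in the difference but shared the model's estimate of the spread, and their response is given beside it. All pigs carried a jugular catheter and received parenteral nutrition at first. The ENT and SLE pigs differed in feeding route, in lipid and in the rest of the diet, which cannot be told apart. Complete ligation in a newborn pig stands for an obstructed bile duct and not for the events that close the duct in infants.

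Bile that cannot leave the liver carries bile acids and cholesterol back into the tissue, and ligation is known to be followed by growth of bile ductules (the ductular reaction), inflammation and scarring. The liver also answers injury by changing its output of acute-phase proteins, plasma proteins made by hepatocytes mainly under cytokine control. Soybean oil emulsions are given into a vein and contain plant sterols, and long parenteral nutrition with them is known to accompany cholestasis in infants.

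Some libraries stood apart. The 43 libraries held 14471963 to 21376410 counted reads each. ENT-sham replicate 2 and ENT-BDL replicate 1 had nearly the same counts, with a chi-square of 1.905 per degree of freedom over 15841 genes, against 20.11 for the next closest of 903 pairs and a median of 54.97 within groups, so counts are given with both and without both. Whether they are 1 library under both labels is not given in the sources used here, and if so the ENT groups hold 1 pig fewer than their n. The library labelled ENT-sham replicate 2 lay at ENT-BDL levels at many genes given below, so its sham label is in doubt. Genes named for the size of their difference had to be called without both libraries to be named, and differences without them are given beside many of the genes described. The sample names carry an identifier number whose meaning is not given in the sources used here. A single number, called the unbalanced number here, covered 3 ENT-BDL, 5 ENT-sham and 5 SLE-BDL libraries but 0 SLE-sham libraries, and 3 numbers covered all 4 groups with 19 libraries. If SLE-sham replicates 9 and 10 came from 1 pig, the group held 9 pigs, and 421 genes were called without replicate 9 and 332 without replicate 10, against 377 with both. Nothing in the labels says how pigs were spread over litters, and p-values measure the spread between these libraries. Hepatocyte markers were high in all libraries, with group medians of their summed level from 131500 to 171600 CPM (counts scaled to library size), as a liver should have, while 5 of 6 skeletal muscle markers had a median under 1 CPM in both ENT groups and 4 of 6 in both SLE groups. The summed muscle markers had medians of 4.45 and 7.59 CPM in ENT-sham and ENT-BDL livers against 23.2 and 17.8 CPM in the SLE groups.

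In SLE pigs the hepatic response to BDL differed from that in ENT pigs at 377 genes, with 204 higher and 173 lower (edgeR's quasi-likelihood test, Benjamini-Hochberg adjusted p below 0.05 at any fold). That was 2.33% of the genes tested, 1.26% higher and 1.07% lower. The median size of the called differences was 0.89 log2 units with a median standard error of 0.22, and 172 genes differed by more than 2-fold. Without both near-identical libraries 725 genes were called, 363 higher (2.25%) and 362 lower (2.24%), and they included all 377 with the same sign. Without the libraries of the unbalanced number, 12 genes were called, and the median size over the 376 of the 377 genes still tested was 0.70 against 0.89. Leaving out these and both near-identical libraries, 214 genes were called, 131 of them among the 377. Of the 38 called genes named by rule, the 3 that kept their call without the unbalanced number were both CRP loci and GPNMB, and 22 kept it without that number and both near-identical libraries. Without the unbalanced number the differences shrank by over 1.5 times, with the call lost, at SLC7A11 (-0.61), FNDC5 (-1.27), ANKS1B (-1.18), FST (1.52), ABCG5 (-0.84) and ADH4 (1.49). In a whole piece of liver, fewer cells of a type and less RNA per cell cannot be told apart, and this applies to every value below.

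By construction the SLE minus ENT difference equals the SLE response minus the ENT response, and also the diet difference among BDL pigs minus the diet difference among sham pigs. Among the 204 genes with a higher difference, the median ENT response was -0.61 and 160 were called lower after BDL in ENT pigs (8.53% of all tested genes). The median SLE response of the same 204 genes was 0.20, with 33 called higher (2.97% of all genes) and 1 called lower (1.57%). For the 173 genes with a lower difference, the median ENT response was 0.72 and 142 were called higher (8.89% of all genes), while the median SLE response was -0.21, with 18 called lower and 1 higher. The scatter plot of both responses shows that most coloured genes lie along the axis of the ENT response. Between the sham groups, 137 of the 204 were called lower (13.6% of all genes) and 143 of the 173 called higher (13.9%) in SLE-sham than in ENT-sham livers. The ENT response, the SLE response and the sham contrast are all part of the difference by which these genes were chosen, so these counts are a description only. In MLE pigs, whose libraries enter the difference only through the shared estimate of the spread, 62 of the 204 genes were called lower after BDL (6.58% of all genes) and 5 higher, and 33 of the 173 were called higher (7.85% of all genes) and 4 lower.

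**Figure D1:**
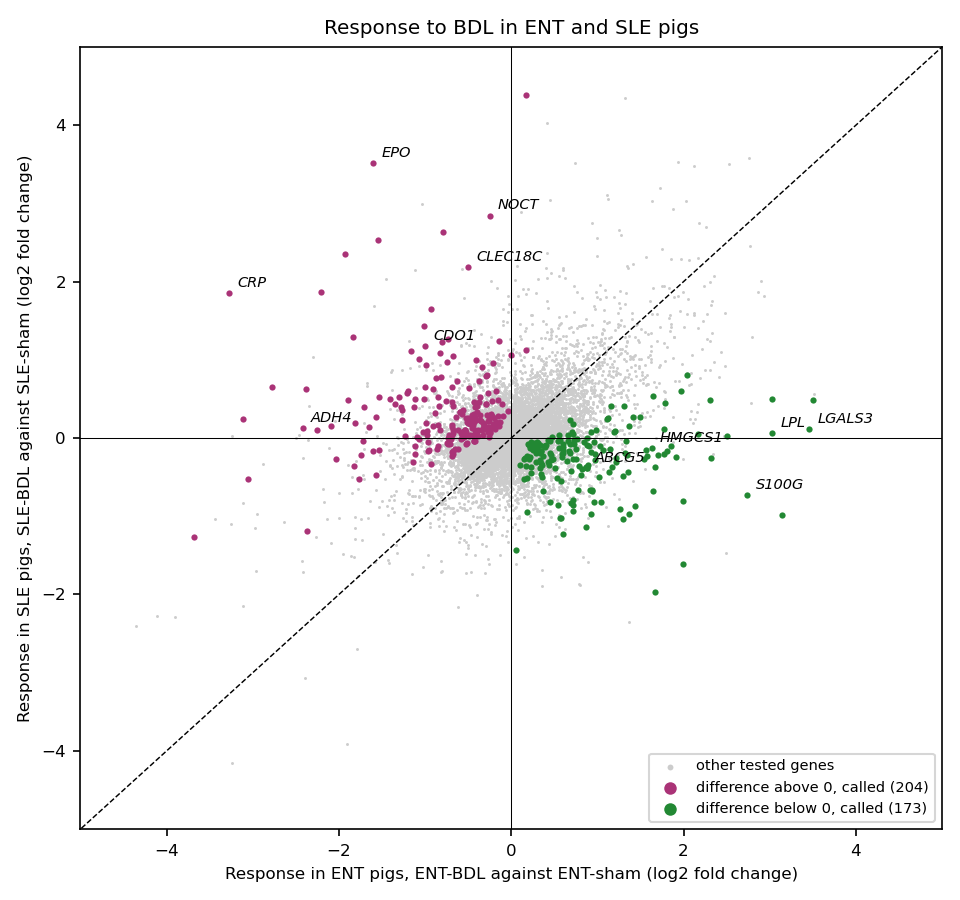
Each point is 1 of the tested genes, with its BDL minus sham response in ENT pigs (log2, x axis) against that in SLE pigs (log2, y axis), and the dashed line marks equal responses. The 204 genes with a higher and the 173 with a lower SLE minus ENT difference are coloured, and most lie at ENT responses away from 0 and SLE responses near 0; 2 genes outside the axes, 0 of them called, are not drawn.

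Of 20 tested acute-phase protein genes, 11 fell after BDL in ENT livers (8.53% of all tested genes) and 0 in SLE livers (1.57%). Among them 9 had a higher SLE minus ENT difference and 0 a lower one, with a list median of 0.76 against 0.00 for all tested genes. In ENT pigs 1 rose, in SLE pigs 2 rose, and in MLE pigs 13 fell (6.58% of all tested genes) and 0 rose. Those higher in difference made up 1.26% of all tested genes. The list pools proteins that an acute-phase response raises with ALB, which it lowers. ALB was among the 11 that fell in ENT livers (-0.83), so the counts do not all point to a weaker acute-phase response. The 9 genes were CRP at both loci of that symbol, HP, ITIH4, CP, FGA, FGB, FGG and PLG. Without both near-identical libraries 9 were called again, without the unbalanced number it was 2, and without all of these libraries 8. Hepatocyte markers moved in part with this list. Their summed level had medians of 171600 and 131500 CPM in ENT-sham and ENT-BDL livers, of 158100 CPM in both SLE groups, and of 180900 and 122800 CPM in MLE-sham and MLE-BDL livers, with overlapping ENT ranges. Of the 11 tested markers, 5 fell and 1 rose after BDL in ENT pigs, 0 passed in SLE pigs, and 9 fell in MLE pigs. In the SLE minus ENT difference 2 of the 11 were higher and 0 lower, and these were FGB and FGG, which stand in both lists. The part of hepatocyte content in the acute-phase values was not tested.

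CRP encodes C-reactive protein, a pentraxin that binds microbial and damaged cell surfaces, and its locus 396842 (chromosome 4, 90793361 to 90801020, Sscrofa11.1) had the largest difference in size. Its level was 7.53 CPM at the lowest, 108.2 at the median and 329.9 at the highest in ENT-sham pigs, and 5.74, 12.3 and 35.0 in ENT-BDL pigs. In SLE-sham pigs it was 3.34, 6.47 and 10.4 CPM, and in SLE-BDL pigs 2.95, 13.8 and 131.0. The 11 other ENT-sham pigs, at 40.4 CPM or more, all lay above every ENT-BDL pig, the near-identical ENT-sham library was among the ENT-BDL pigs, and the SLE groups overlapped. The response was -3.27 ± 0.50 (log2, SE) in ENT and 1.86 ± 0.49 in SLE pigs, and the SLE minus ENT difference of 5.13 ± 0.70 (edgeR's quasi-likelihood test, adjusted p = 1.68e-05) was 5.18 without both near-identical libraries. It remained called without the unbalanced number (5.23, adjusted p = 0.00376), and fell to 4.31 without SLE-BDL replicate 7. MLE-sham livers held a median of 6.36 CPM and MLE-BDL livers 8.2 CPM, with a response of -0.22 ± 0.54.

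The neighbouring CRP locus 100620468 (chromosome 4, 90782741 to 90785051) also differed, by 2.08 ± 0.45 (adjusted p = 0.00474) and 2.14 without both near-identical libraries. Reads that match both loci could have been assigned to either, so the values of single CRP loci are uncertain. HP encodes haptoglobin, which binds free haemoglobin (chromosome 6, 14980382 to 14985245). Its level had a median of 8390 CPM in ENT-sham and 3635 CPM in ENT-BDL livers, against 3926 and 5583 CPM in SLE-sham and SLE-BDL livers, with all 4 ranges overlapping and a highest value of 21660 CPM in an SLE-BDL pig. HP fell after BDL in ENT pigs by 0.99, rose in SLE pigs by 0.94 and fell in MLE pigs by 1.38 log2 units, and its SLE minus ENT difference was 1.93 ± 0.39 (adjusted p = 0.00293), or 1.96 without both near-identical libraries.

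ITIH4, a heavy-chain protein of plasma that is a major acute-phase protein in pigs (chromosome 13, 34928455 to 34948250), ranged from 1548 to 4707 CPM in ENT-sham pigs and from 923.4 to 2171 in ENT-BDL pigs, and from 1840 to 4274 and from 1914 to 8769 in SLE-sham and SLE-BDL pigs. Its difference was 1.53 ± 0.29 (adjusted p = 0.00141), or 1.61 without both near-identical libraries. The ENT response was -1.13 and the MLE response -1.38, both called, and the SLE response of 0.40 was not (adjusted p = 0.291). CP, the copper carrier ceruloplasmin, differed by 2.07 (adjusted p = 0.0224), and by 1.62 with the identifier number as a block, where the call was lost (adjusted p = 0.127). The 3 chains of fibrinogen, the clotting protein, lie next to each other on chromosome 8 (74553040 to 74607409) and differed alike, FGG by 0.93, FGA by 0.93 and FGB by 0.88. PLG, the precursor of the clot-dissolving enzyme plasmin, differed by 0.52 (adjusted p = 0.0458). Members that did not pass included SAA2, a serum amyloid A, with a difference of 3.27, HPX at 1.01, ALB at 0.50 and SAA3 at -0.62.

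**Figure D2:**
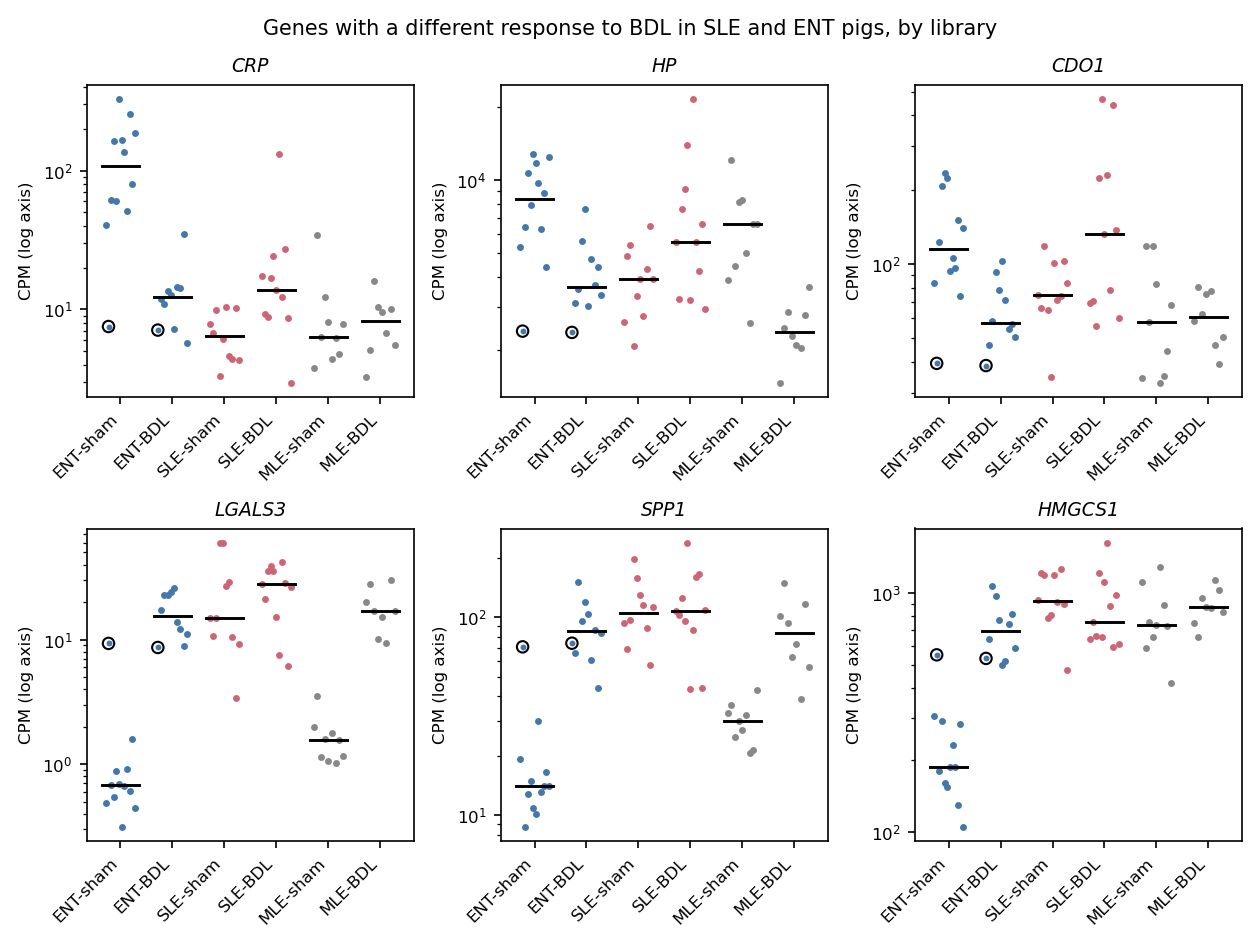
Level (CPM, log axis) of CRP (locus 396842), HP, CDO1, LGALS3, SPP1 and HMGCS1 in every library of the 6 groups, with 1 point per library, a black bar at the group median and open circles for the near-identical libraries. CRP medians are 108.2 CPM in ENT-sham and 12.3 in ENT-BDL, against 6.47 and 13.8 in the SLE groups, while LGALS3, SPP1 and HMGCS1 are low in ENT-sham alone among the 4 ENT and SLE groups, save for the open circle.

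Further hepatocyte genes were higher in difference. CDO1, cysteine dioxygenase, which commits cysteine to taurine synthesis and so supplies a partner for bile acid conjugation (chromosome 2, 119927768 to 119940690), had medians of 114.3 CPM in ENT-sham and 57.7 CPM in ENT-BDL livers, and of 74.4 and 132.4 CPM in SLE-sham and SLE-BDL livers. It fell in ENT pigs (-1.0 ± 0.31) and rose in SLE pigs (1.18 ± 0.32), with overlapping ranges, and differed by 2.18 ± 0.44 (adjusted p = 0.00283) or 2.21 without both near-identical libraries. ADH4, an alcohol dehydrogenase that also oxidises retinol (chromosome 8, 121225485 to 121259262), had a median of 75.3 CPM in ENT-sham livers against 13.7, 7.06 and 7.83 CPM in ENT-BDL, SLE-sham and SLE-BDL livers. Its difference of 2.55 ± 0.53 (adjusted p = 0.0035) came with a fall in ENT pigs (-2.42) from a median that lay above every SLE-sham pig. It was 2.63 without both near-identical libraries, 1.49 without the unbalanced number (adjusted p = 0.346) and 1.58 without that number and both near-identical libraries (adjusted p = 0.2). RTP3, a receptor-transporting protein expressed in liver, was likewise highest in ENT-sham livers, with medians of 53.8, 9.23, 8.10 and 7.18 CPM in ENT-sham, ENT-BDL, SLE-sham and SLE-BDL livers and a difference of 3.01, which fell to 2.15 without SLE-BDL replicate 7. POR, the reductase that passes electrons to microsomal cytochromes P450, differed by 0.91, and with ADH4 made up the 2 of 36 xenobiotic metabolism genes that were called. Both were higher in difference, as were 1.26% of all tested genes.

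C4BPA, a chain of the C4b-binding protein that restrains complement, differed by 2.0 and fell in MLE pigs too (-1.82). C4A, the complement component C4, differed by 1.5 and was the only one called of the 31 genes on the coagulation and complement list, which holds neither C4BPA nor the fibrinogen chains and PLG of the acute-phase list. FST, follistatin, which binds activins, differed by 2.36 ± 0.53 and dropped to 1.60 without SLE-BDL replicate 2 (adjusted p = 0.0349). IGFBP4, a binding protein of insulin-like growth factors (chromosome 12, 21966524 to 21980043), fell in ENT pigs (-0.37) and rose in SLE pigs (0.52), and differed by 0.89 ± 0.18 (adjusted p = 0.00278), or 0.94 without both near-identical libraries. INSR, the insulin receptor, differed by 0.48 (adjusted p = 0.0291) and lost its call in 6 of 43 fits that left out 1 library, with an adjusted p up to 0.0561 without ENT-BDL replicate 4. These 2 were the called members among 14 genes of the growth hormone and IGF axis, where 2.33% of all tested genes were called.

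EPO, erythropoietin, the hormone that drives red cell formation and that the fetal and newborn liver secretes (chromosome 3, 8620508 to 8622936), rose in SLE pigs. Its level was low, with 0, 0.324 and 1.44 CPM as lowest, median and highest value in ENT-sham and 0, 0.103 and 0.344 CPM in ENT-BDL livers, against 0.136, 0.359 and 0.659 CPM in SLE-sham and 0.470, 1.14 and 22.5 CPM in SLE-BDL livers. Every SLE-BDL pig was above every ENT-BDL pig. The response was 3.52 ± 0.58 in SLE (adjusted p = 2.25e-04) and 2.40 ± 0.76 in MLE pigs (adjusted p = 0.0244), with -1.60 ± 0.65 in ENT pigs (adjusted p = 0.0778). The SLE minus ENT difference was 5.12 ± 0.86 (adjusted p = 4.08e-04), 5.08 without both near-identical libraries, and 4.32 without SLE-BDL replicate 5. It was 3.07 with limma-voom (adjusted p = 0.0495) and 3.82 without the unbalanced number, where the call was lost (adjusted p = 0.0707), and within the 3 numbers that held all 4 groups EPO differed by 1.31, 2.83 and 0.63. The summed level of 8 erythroid markers had medians of 1195 and 1180 CPM in ENT-sham and ENT-BDL and of 558.4 and 622.1 CPM in SLE-sham and SLE-BDL livers, 0 of the 7 tested had a called difference, and the part of such cells in the EPO result was not tested. SLC39A14, an importer of zinc and iron that acute-phase signals induce, differed by 0.69 ± 0.15 (adjusted p = 0.00427), and with EPO was called among 23 genes of iron, zinc and hypoxia response. Both were higher in difference, as were 1.26% of all tested genes.

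CLEC18C, a C-type lectin, rose in SLE pigs (2.19, adjusted p = 0.0057) from a median of 1.84 to 8.50 CPM and differed by 2.69, a call lost with the identifier number as a block (adjusted p = 0.0522). NOCT, nocturnin, a rhythmic dinucleotide phosphatase, had a difference of 3.10 ± 0.87 (adjusted p = 0.0399) that rested on few pigs. Its medians were 3.93, 2.52, 3.45 and 3.65 CPM in ENT-sham, ENT-BDL, SLE-sham and SLE-BDL livers, with a highest SLE-BDL value of 252.6 CPM, and without SLE-BDL replicate 9 the difference was 1.34 (adjusted p = 0.313). NOCT lost its call in 19 of 43 fits that left out 1 library and kept it in 3 of 14 other alternatives. Of 20 circadian clock genes, the repressor BHLHE40 (1.36, adjusted p = 0.015) was higher and the core repressor CRY1 (-0.66, adjusted p = 0.0199) lower in difference, against 1.26% and 1.07% of all tested genes. BHLHE40 was 0.75 with limma-voom (adjusted p = 0.0955) and 1.16 with the replicate block (adjusted p = 0.0625), and its call was lost in both. Leaving out both near-identical libraries, 4 were higher, with NR1D1, NR1D2 and PER3 added, and 1 was lower.

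Genes of inflammation rose after BDL in ENT livers, and 6 of 35 list members had a lower SLE minus ENT difference. These 6 were TNFRSF9, VCAM1, IKBKE, TRAF3, FAS and NFKB2, and 0 of the 35 were higher in difference; the list median was -0.48. Over all tested genes 1.07% were lower in difference. In ENT pigs 21 members rose and 0 fell, in SLE pigs 5 rose and 0 fell, and in MLE pigs 17 rose and 0 fell, where 8.89%, 2.97% and 7.85% of all tested genes rose. Without both near-identical libraries 9 members were lower in difference (2.24% of all tested genes), without the unbalanced number it was 0, and without all of these libraries 6. Of 7 tested T and NK cell markers, 0 had a positive difference, the median was -0.84, and CD3G was called lower (-1.83, edgeR, adjusted p = 0.0479). CD3G had low levels, and CD4 had a called SLE response of -0.61. The 6 neutrophil markers had 0 called differences and a median of 0.18. The part of such cells in the inflammation values was not tested.

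VCAM1, an adhesion molecule that holds leukocytes at vessel walls (chromosome 4, 117496914 to 117511211), had 35.2, 66.3 and 215.0 CPM as lowest, median and highest value in ENT-sham and 146.3, 201.4 and 320.9 in ENT-BDL livers, against 86.1, 152.1 and 264.8 in SLE-sham and 85.1, 152.7 and 272.5 in SLE-BDL livers. The highest ENT-sham value was the near-identical library, the other ENT-sham pigs reached 103.5 CPM and lay below all ENT-BDL pigs, and the SLE groups covered the same range. Its difference was -1.36 ± 0.29 (adjusted p = 0.00411), and -1.59 without both near-identical libraries. TNFRSF9, the co-stimulatory receptor 4-1BB, had a median of 1.71 CPM in ENT-sham and 19.6 in ENT-BDL livers, and 12.7 and 10.5 in SLE-sham and SLE-BDL livers. It differed by -2.47 ± 0.56 (adjusted p = 0.00806), and by -3.28 without both near-identical libraries. TRAF3, an adaptor that restrains the alternative NF-kappaB pathway and lies on a scaffold with no chromosome assigned, differed by -1.0 ± 0.21 (adjusted p = 0.0033). NFKB2, the precursor of the p52 subunit of that pathway, differed by -0.66 (adjusted p = 0.0432), IKBKE, a kinase of innate immune signalling, by -1.22, and the death receptor FAS by -1.04.

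The ductular reaction, read from 21 tested genes of bile duct cells, rose with BDL in each diet at several members, and 3 had a lower SLE minus ENT difference. In ENT pigs 16 rose and 0 fell, in SLE pigs 8 rose and 0 fell, and in MLE pigs 16 rose and 1 fell. Of all tested genes 8.89%, 2.97% and 7.85% rose in these diets. Those lower in difference made up 1.07% of all tested genes, or 2.24% without both near-identical libraries. LGALS3, SPP1 and CLDN7 were lower in difference with both near-identical libraries, and 9 members without them, which were CFTR, CLDN6, CLDN7, CLDN9, KRT7, KRT19, LGALS3, MMP7 and SPP1. The count was 0 without the unbalanced number and 5 without all of these libraries. The summed level of 10 cholangiocyte markers, of which SPP1 and CLDN7 were called, had medians of 609 and 1031 CPM in ENT-sham and ENT-BDL livers and of 774.7 and 1015 CPM in SLE-sham and SLE-BDL livers; the part of duct cell number in these values was not tested.

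LGALS3, the sugar-binding lectin galectin-3 of macrophages and epithelia (chromosome 1, 184478639 to 184496155), had 0.312, 0.676 and 9.30 CPM as lowest, median and highest value in ENT-sham and 8.63, 15.6 and 25.8 in ENT-BDL livers. In SLE-sham livers the values were 3.37, 14.9 and 59.9 CPM and in SLE-BDL livers 6.09, 27.8 and 41.7. The 11 other ENT-sham pigs, at 1.58 CPM or less, lay below all ENT-BDL and all SLE pigs, and both SLE groups overlapped. The response was 3.46 ± 0.45 in ENT and 3.46 ± 0.52 in MLE pigs, against 0.11 ± 0.40 in SLE pigs, and the SLE minus ENT difference was -3.35 ± 0.59 (adjusted p = 7.23e-04), or -4.48 without both near-identical libraries. SPP1, osteopontin, a secreted matrix protein and chemoattractant (chromosome 8, 131077786 to 131085334), had medians of 14.1, 85.2, 105.3 and 107.3 CPM in ENT-sham, ENT-BDL, SLE-sham and SLE-BDL livers. ENT-sham pigs other than the near-identical one reached 29.96 CPM, below the lowest ENT-BDL pig at 43.8 CPM, whereas SLE-sham pigs began at 57.7 CPM. Its difference was -2.12 ± 0.39 (adjusted p = 0.00131), and -2.54 without both near-identical libraries, and MLE pigs had a called rise of 1.54. CLDN7, a tight junction protein, was called higher in ENT (2.04) and in SLE pigs (0.80), with a difference of -1.24 (adjusted p = 0.0245).

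In this fit the near-identical libraries decided the call at many genes, among them MMP7 and, chosen after their values were seen, CXCL8 and CLDN6. MMP7, a matrix-degrading enzyme of injured bile ducts (chromosome 9, 33214590 to 33225080), lay at 2.50 to 9.92 CPM in 11 ENT-sham pigs and at 225.8 CPM in the near-identical one, against 52.0 to 211.9 CPM in ENT-BDL livers. SLE-sham pigs had 9.86 to 29.8 CPM and SLE-BDL pigs 22.8 to 99.0 CPM, with medians of 20.4 and 65.0. Its SLE minus ENT difference was -0.73 ± 0.73 (adjusted p = 0.715) with both libraries and -2.82 ± 0.36 (adjusted p = 3.99e-07) without them, with responses of 4.31 in ENT and 1.49 in SLE pigs. With both libraries kept, it was -2.71 with limma-voom's quality weights (adjusted p = 1.09e-05) and -2.24 with the identifier number as a block (adjusted p = 0.0306), both called. CXCL8, a chemokine that draws neutrophils (chromosome 8, 69932646 to 69935861), had -0.89 (adjusted p = 0.643) and -3.32 (adjusted p = 3.99e-07). CLDN6, a claudin (chromosome 3, 39168506 to 39172631), had -1.01 (adjusted p = 0.489) and -2.99 (adjusted p = 3.68e-07). For both, the near-identical ENT-sham library held the highest ENT-sham value, 45 CPM for CXCL8 and 11.6 for CLDN6, against medians of 0.855 and 0.305 CPM.

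**Figure D3:**
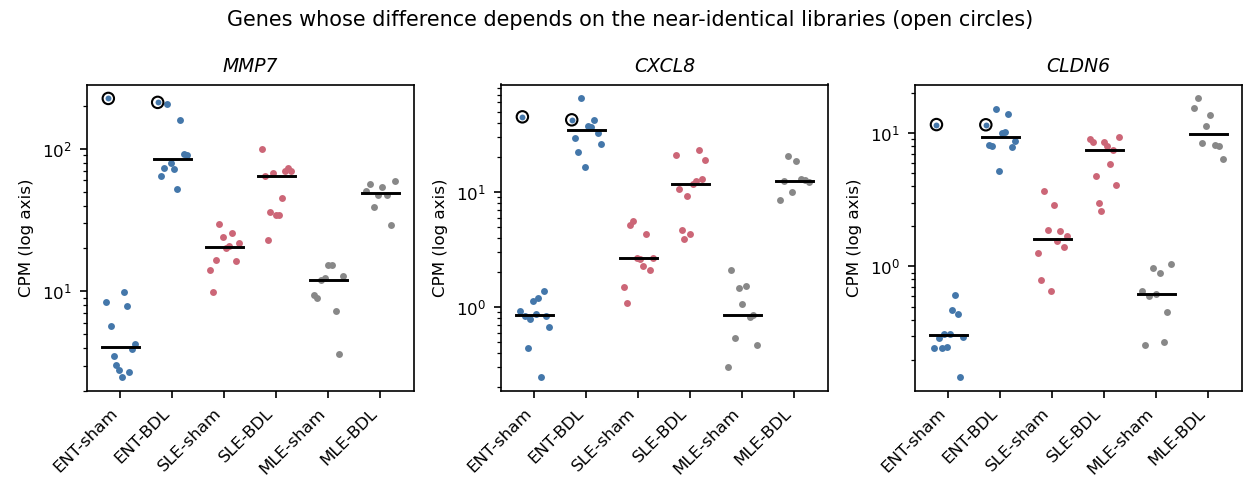
Level (CPM, log axis) of MMP7, CXCL8 and CLDN6 in every library of the 6 groups, with 1 point per library, a black bar at the group median and open circles for ENT-sham replicate 2 and ENT-BDL replicate 1. The open circle in ENT-sham lies within the ENT-BDL range or above it, at 225.8 CPM for MMP7, while the other ENT-sham pigs reach 9.92 CPM.

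Of 23 tested cholesterol synthesis genes, 9 rose (8.89% of all tested genes) and 1 fell (8.53%) after BDL in ENT livers. Of the 23, 5 had a lower difference (1.07% of all tested genes) while 0 had a higher one. In SLE pigs 0 passed in either direction, and in MLE pigs 0 rose and 4 fell (6.58% of all tested genes). HMGCS1, SQLE, MVD and FDPS, enzymes of the route from acetyl-CoA to squalene and its epoxide, were among them, and the list median was -0.34. There were 6 without both near-identical libraries, 0 without the unbalanced number and 1, HMGCS1, without all of these libraries. HMGCS1, the cytosolic synthase that makes hydroxymethylglutaryl-CoA (chromosome 16, 27936225 to 27957261), had 104.9, 187.0 and 549.3 CPM as lowest, median and highest value in ENT-sham and 497.6, 688.1 and 1069 in ENT-BDL livers. SLE-sham livers held 476.8, 921.2 and 1252 CPM and SLE-BDL livers 590.6, 755.3 and 1615. The ENT-sham pigs other than the near-identical one reached 305.8 CPM and were below every ENT-BDL and SLE pig. The difference was -1.76 ± 0.29 (adjusted p = 2.82e-04), and -1.99 without both near-identical libraries. SQLE, squalene epoxidase, differed by -0.81 ± 0.18 (adjusted p = 0.00614), MVD, a decarboxylase of the route, by -0.80 and FDPS, farnesyl diphosphate synthase, by -0.59. The MLE responses of these genes lay between -0.13 and 0.16, with 0 called.

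Transporters of bile lipids and bile acids had 3 calls of 15, with 2 higher (1.26% of all tested genes) and 1 lower (1.07%). ABCG5 forms with ABCG8 the pump that sends cholesterol and plant sterols into bile, and it is encoded beside it on chromosome 3 (96616304 to 96656893). Its level was 47.4, 59.3 and 97.4 CPM at the lowest, median and highest in ENT-sham and 94.9, 120.5 and 155.6 in ENT-BDL livers, and 91.9, 135.2 and 162.0 in SLE-sham and 69.1, 92.1 and 144.1 in SLE-BDL livers. ENT groups overlapped only at the top of the sham range. The ENT response was 0.88 ± 0.13 and the SLE response -0.39 ± 0.13 (adjusted p = 0.0709), with a difference of -1.27 ± 0.18 (adjusted p = 2.42e-05), or -1.36 without both near-identical libraries. ABCG8 had -0.59 (adjusted p = 0.0565), and -0.62 (adjusted p = 0.0347) without them. ABCC3, an exporter of conjugates to blood, differed by 0.70 ± 0.16 (adjusted p = 0.00916), and SLCO1A2, an organic anion uptake carrier, by 1.24 (adjusted p = 0.0288). Without both near-identical libraries ABCB4, the phospholipid floppase, ABCB11, the canalicular bile salt pump, and the basolateral exporters ABCC4 and SLC51B were also lower in difference, at -1.5, -0.81, -0.90 and -1.53.

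Other large negative differences belonged to genes of varied roles. GPNMB, a glycoprotein of lysosome-rich macrophages (chromosome 9, 92037428 to 92071501), had medians of 43.1 and 201.3 CPM in the sham and BDL pigs fed enterally and of 240.8 and 259.6 CPM in those given SLE. Its difference was -1.95 ± 0.34 (adjusted p = 6.82e-04), or -2.18 without both near-identical libraries, and it remained called without the unbalanced number (-2.07, adjusted p = 0.0385), while MLE pigs had a called rise of 1.4. LPL, lipoprotein lipase, which releases fatty acids from circulating triglyceride, had medians of 0.135 and 1.64 CPM in the ENT and 2.41 and 4.40 in the SLE groups, and differed by -2.97 ± 0.74 (adjusted p = 0.0177), the only call among 16 apolipoprotein-list genes (2.33% of all tested genes were called). The 10 Kupffer cell and macrophage markers had 0 called differences, and their summed level had medians of 1493, 1139, 1302 and 1015 CPM in ENT-sham, ENT-BDL, SLE-sham and SLE-BDL livers.

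S100G, the calcium-binding protein calbindin-D9k, had medians of 1.00, 14.5, 99.1 and 60.2 CPM in the same order and a difference of -3.47 ± 0.64 (adjusted p = 0.00131), or -4.39 without both near-identical libraries. CDH16, an epithelial cadherin, differed by -2.57, and by -3.58 without both near-identical libraries. FNDC5, the precursor of the secreted peptide irisin, differed by -1.97, the nucleotide-cleaving ectoenzyme ENPP3 by -1.81 and the scaffold protein ANKS1B by -1.93. The call for ANKS1B was lost in 1 of 43 fits that left out 1 library (adjusted p = 0.0528 without SLE-sham replicate 4). TNNI2, a troponin of fast skeletal muscle, differed by -2.0 ± 0.49 (adjusted p = 0.0152), with medians of 4.09 and 7.15 CPM in sham and BDL pigs fed enterally and of 21.9 and 16.1 CPM in those given SLE. The summed level of the 6 muscle markers ran from 1.63 to 9.45, 5.37 to 16.5, 13.4 to 73.2 and 3.59 to 27.7 CPM in the same groups, most of it TNNI2, and its part in the result was not tested. PHGDH, which opens serine synthesis, differed by -0.68, fell in SLE pigs by 0.44 (adjusted p = 0.0173) and had an ENT response of 0.23 (adjusted p = 0.157). SLC7A11, the cystine importer, differed by -1.28 (adjusted p = 0.0237, and 0.0529 with the identifier number as a block).

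**Figure D4:**
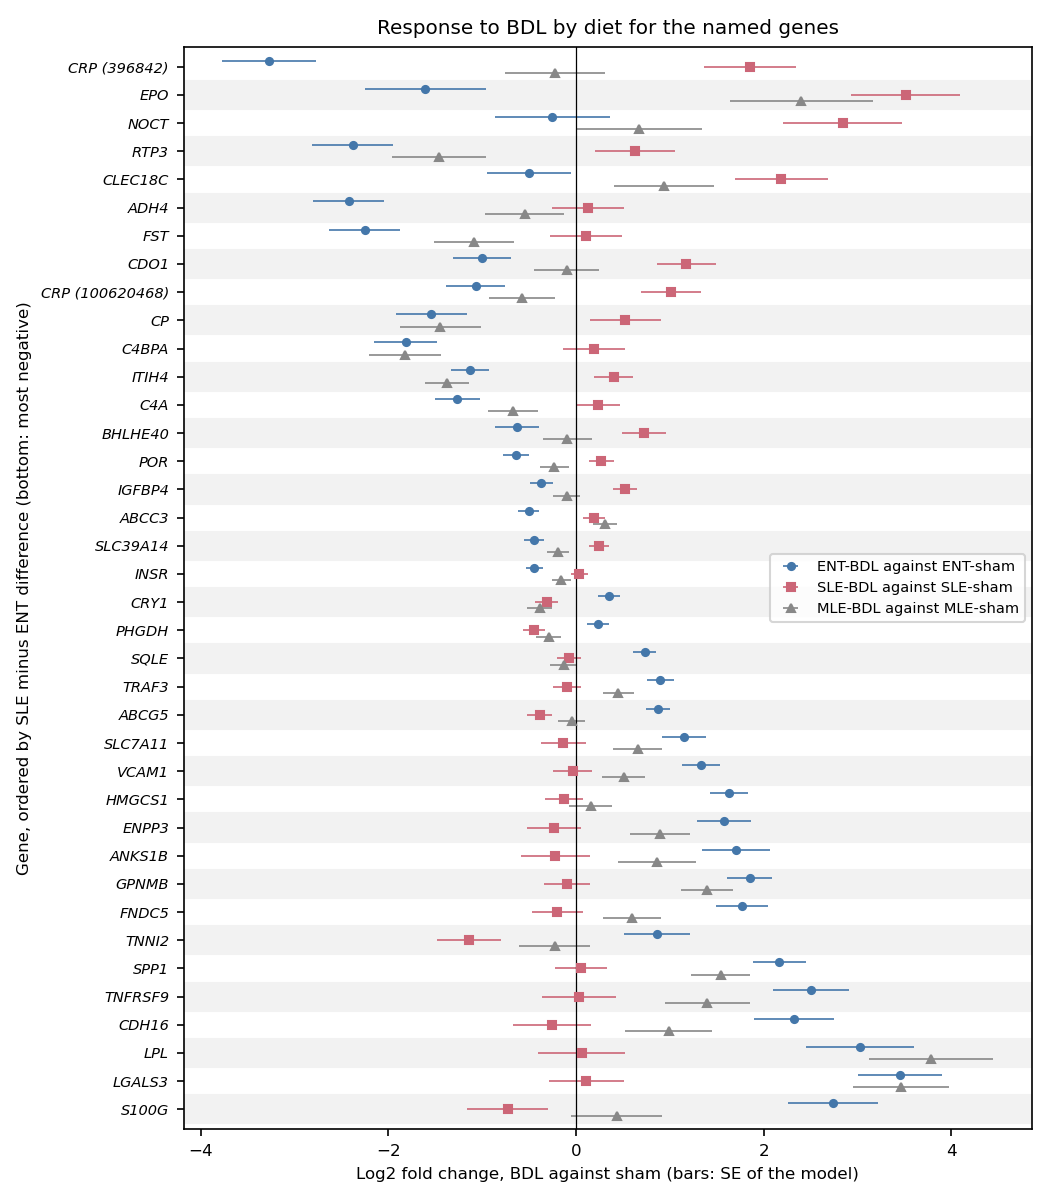
BDL minus sham response (log2, x axis, points with bars of 1 standard error) in ENT, SLE and MLE pigs for the 38 named genes with a called SLE minus ENT difference. CRP at locus 396842 stands at -3.27 in ENT and 1.86 in SLE pigs, LGALS3 at 3.46 and 0.11, and HMGCS1 at 1.63 and -0.13.

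Both responses were called, and in opposite directions, at 10 genes. CRP, HP, CDO1 and IGFBP4, described above, were joined by 6 that were named after their values were seen. PTGFRN, a membrane protein that associates with tetraspanins, fell in ENT pigs (-0.82) and rose in SLE pigs (1.08), with a difference of 1.91 ± 0.29 (adjusted p = 8.18e-05). TUBA4A, an alpha-tubulin, did the same at -0.49 and 0.64. STK4, a kinase of the Hippo pathway, rose in ENT pigs (0.22) and fell in SLE pigs (-0.25), and so did AGXT, a peroxisomal aminotransferase that detoxifies glyoxylate (0.35 and -0.46). The uncharacterised loci LOC110258406 and LOC110258215 completed the 10, with differences of -2.33 and 4.29 at low levels. The MLE responses were -0.01 for PTGFRN, 0.01 for TUBA4A, 0.04 for STK4, -0.21 for AGXT, 0.13 for LOC110258406 and 1.62 for LOC110258215.

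Several programmes that BDL is known to engage had 0 called differences with all libraries in the fit. For 41 extracellular matrix genes, 20 rose and 1 fell in ENT pigs and 12 rose and 1 fell in SLE pigs, with 0 called differences and a median of 0.06. Of all tested genes 8.89% rose and 8.53% fell in ENT pigs, and 2.97% rose and 1.57% fell in SLE pigs. Of the 41, 2 were lower in difference without both near-identical libraries. CYP7A1, the rate-limiting enzyme of classical bile acid synthesis (chromosome 4, 74343101 to 74372628), had medians of 5.56 CPM in ENT-sham and 65.8 CPM in ENT-BDL livers, against 0.497 and 4.50 CPM in SLE-sham and SLE-BDL livers. It rose in ENT (2.52 ± 0.54), SLE (3.51 ± 0.69) and MLE pigs (2.84 ± 0.83), and the SLE minus ENT difference was 0.99 ± 0.86 (adjusted p = 0.658), or 0.45 ± 0.83 without both near-identical libraries. SOX9, a transcription factor of bile duct cells, had a difference of 0.13 ± 0.41 (adjusted p = 0.925) that changed sign to -0.07 without both near-identical libraries, and TGFB1, the fibrogenic cytokine, one of 0.12 ± 0.18 (adjusted p = 0.838). These standard errors leave room for differences in either direction, and the values do not show that the diets responded alike.

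With all libraries, the other lists had 0 called members of 12 tested in bile acid synthesis, 8 in FXR and FGF19 sensing, 18 in the TGF-beta pathway, 19 in lipogenesis, 25 in fatty acid oxidation, 27 in endoplasmic reticulum folding, 28 in gluconeogenesis and amino acid breakdown, 9 in the urea cycle, 21 in branched-chain amino acid breakdown, 25 in interferon-stimulated genes, 27 in the cell cycle and 14 liver transcription factors. Without both near-identical libraries 1 member was called in each of 5 of these lists, HSD17B4 in bile acid synthesis, ITGB8 in the TGF-beta pathway, PPARG in lipogenesis, SHMT1 in gluconeogenesis and amino acid breakdown and CEBPA among the liver transcription factors. Cell cycle genes rose at 10 of 27 members in ENT pigs (8.89% of all tested genes) and 0 in SLE pigs (2.97%), yet 0 differences passed the test in either fit. Liver transcription factors fell at 11 of 14 in ENT (8.53% of all tested genes) and 2 of 14 in SLE pigs (1.57%), with 0 called differences when all libraries were used. Interferon-stimulated genes had a median difference of 0.75 with 0 calls, and 0 members passed in either the ENT or the SLE response. The amino acid stress list had 3 calls of 31, ALDH1L2, a mitochondrial folate enzyme (0.66), and the PHGDH and SLC7A11 given above. The 19 oxidative stress genes had 1, SLC7A11, where 2.33% of all tested genes were called.

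**Figure D5:**
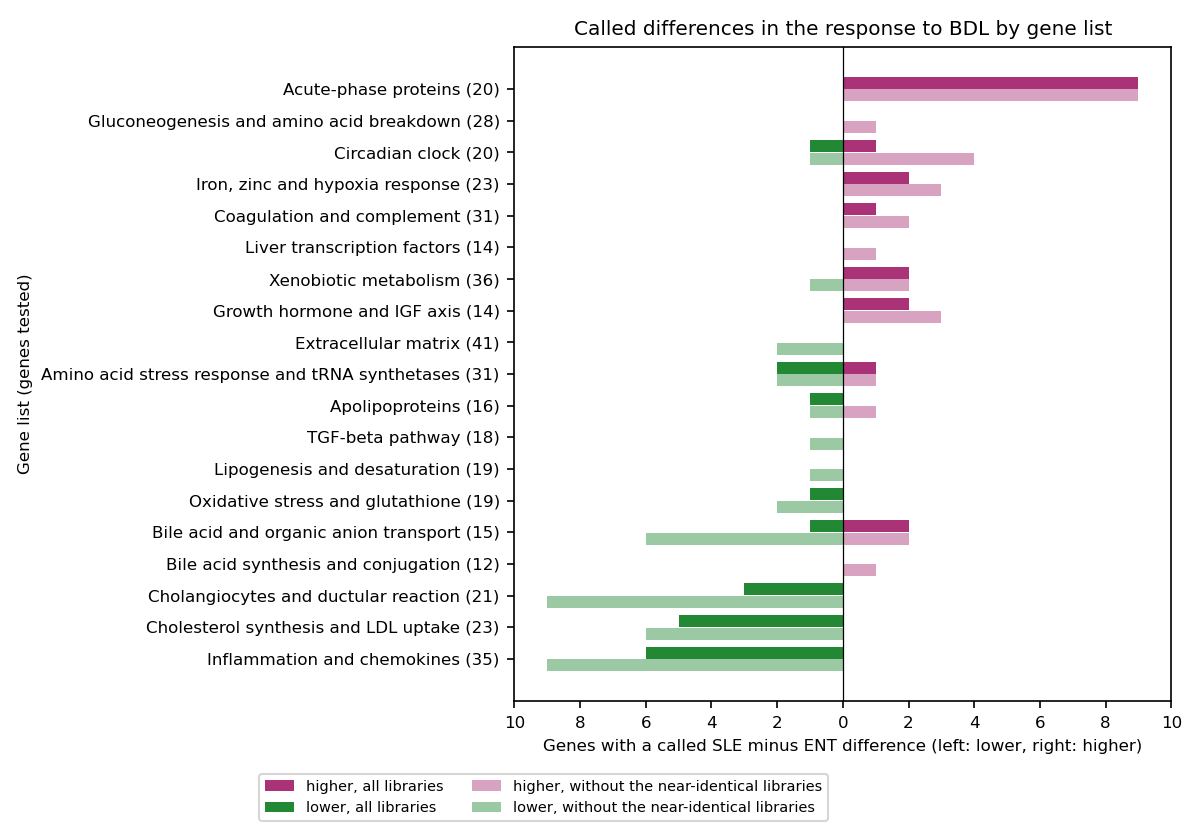
Number of tested members with a called SLE minus ENT difference, higher to the right and lower to the left, by gene list, with all libraries and without both near-identical libraries. Gene lists with no call either way, and the marker lists, are not drawn. Acute-phase proteins have 9 higher and 0 lower either way, and the cholangiocyte and ductular list goes from 3 to 9 lower.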

How the data were processed

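RNA-seq was available for 60 liver libraries. The deposited table holds raw gene counts, which the authors made by aligning paired-end reads to Sscrofa11.1 with HISAT2 2.0.5 and counting them with featureCounts 1.5.0-p3 (StringTie 1.3.3 is also listed), per the labels and the study's methods. Its 24 features without a name (0.00842 to 0.0407% of reads) were left out, and 0 sample columns stayed unused.

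Counts were tested with edgeR 4.0.16 (R 4.3.3), with filterByExpr, TMM scaling and a quasi-likelihood model of the 6 groups over the 60 libraries, where the study used DESeq2. Contrasts gave log2 differences, with standard errors derived from the F statistic of the test. An adjusted p below 0.05 (Benjamini-Hochberg over 16210 genes) at any fold was called. Log2 CPM values, but not the log2 differences of the model, were made with a prior count of 2. Levels are CPM on TMM-scaled library sizes, are not scaled for gene length, and cover 14471963 to 21376410 counted reads per library. On data simulated from these libraries, edgeR found 59 of 100 changed genes at a log2 difference of 1 and 89 of 100 at 2 in this comparison over 16210 genes, with 4 false calls. The simulated counts were drawn independently around 1 mean level per gene, with changes in SLE-BDL alone and no other effect of diet or BDL. They held no near-identical libraries and no deviation shared within an identifier number, so they do not give the error rates of the real fit. Figures were drawn with matplotlib 3.10.9 from tables made in Python 3.11.15 with numpy 2.4.6 and pandas 2.3.3.

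The groups, 26 gene lists and 12 marker lists were chosen with earlier results of these data known. Genes were named by a rule, which took the 10 largest differences in each direction with the same sign and call without both near-identical libraries (a symbol other than LOC, an average level of 2 log2 CPM or more), at most 2 called genes of each list by adjusted p, and CYP7A1, SOX9, MMP7 and TGFB1. Other genes in the text are further called list members, members at the ends of a list or genes with opposite responses, and they were named after their values were seen. Gene positions are from the deposited table, and 2 genes are not reported here. Alternatives were DESeq2 1.42.0, limma 3.58.1 (voom with quality weights), RLE scaling, other filters, the 4 groups alone, blocks for replicate or identifier number, and leaving out libraries.

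Same-numbered replicates of different groups did not deviate together (61 pairs, r from -0.181 to 0.381, median 0.0261), so the numbers were not taken to pair pigs. Libraries that share an identifier number did so more often (110 pairs, median r 0.123, against -0.0281 over 582 pairs with other numbers). The main fit had no block for this number and treated such libraries as independent, so its p-values do not allow for this. With the block, 271 of the 377 genes were still called. Replicates 9 and 10 of SLE-sham have 1 pig identifier between them but differed by 34.21 in chi-square per degree of freedom, and were kept as 2 libraries, which the tests treat as independent. No sequences are shown, because no genome or sequence table was used here.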

Additional observations from a re-analysis of the deposited data

Results flagged for a closer look

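The response to BDL differed between SLE and ENT pigs at 377 genes by the test of the difference itself. Among the genes named by rule, CRP at locus 396842 (5.13), IGFBP4 (0.89) and CDO1 (2.18) had both responses called in opposite directions, with the SLE minus ENT difference in log2 units in parentheses.

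Single pigs stood apart from their group at 7 of 84 sets of a named gene in ENT-BDL or SLE-sham pigs, the groups of 10 (Dixon's test at the 95% level, by which chance alone marks about 1 in 20 sets). CRP at locus 396842 was at 5.14 log2 CPM in ENT-BDL replicate 9, with the next pig at 3.87. ADH4 was at 5.82 log2 CPM in ENT-BDL replicate 10, next to 4.11, and C4A at 7.19 in ENT-BDL replicate 4, next to 8.57. In SLE-sham pigs, ABCG5 was at 6.52 log2 CPM in replicate 9 (next 6.95), HMGCS1 at 8.90 in replicate 10 (next 9.61), CDO1 at 5.13 in replicate 5 (next 6.02) and FST at -0.67 in replicate 10 (next 1.01). ENT-BDL replicate 4 also had a low quality weight in limma (0.178). Leaving out any of these libraries changed no call for CRP, ABCG5, HMGCS1, CDO1, ADH4, C4A or FST.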

How the results depend on the processing

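The count of 377 genes was 537 with DESeq2, 973 with limma-voom quality weights, 241 in the 4 groups alone, 172 above a 2-fold difference and 473 with the identifier number as a block, of which 271 were shared. Without both near-identical libraries it was 725, 831 with the identifier block added and 930 with DESeq2. In alternatives added after the data were seen it was 12 without the unbalanced identifier number, 214 without that number and both near-identical libraries, and 4 within the 3 numbers that held all 4 groups, where the median standard error over the called genes was 0.302 against 0.216. With the replicate block it was 373 (173 higher, 200 lower), of which 288 were shared. Leaving out 1 library gave 277 to 764 genes, the highest without ENT-sham replicate 2 and the next highest 426. For the ENT response (2823 genes) the count was 549 above 2-fold, 1088 without the unbalanced number, 414 within the 3 numbers and 2453 to 3643 without 1 library. For the SLE response (736 genes) it was 241 above 2-fold, 468 with limma-voom, 470 in the 4 groups alone, 399 without the unbalanced number, 69 within the 3 numbers and 484 (without SLE-BDL replicate 9) to 931 without 1 library. The causes of these moves were not tested, except that fewer libraries enter the last sets.

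Of the 38 named called genes, 34 or more kept their call under DESeq2, limma-voom, RLE scaling, the 4 groups alone and either block. All 38 kept it without both near-identical libraries, but the naming rule required this of the genes named for size, so it is no test of them. Without the unbalanced number and both near-identical libraries 22 kept it, without the unbalanced number 3, and within the 3 numbers that held all 4 groups 0. NOCT lost its call under DESeq2 (adjusted p = 0.289), BHLHE40 with limma-voom (0.0955) and with the replicate block (0.0625), and LPL (0.0598) and FST (0.0502) with limma-voom. CLEC18C lost it with the replicate block (0.0633). NOCT had a difference of -0.517 within 1 of those 3 numbers taken alone. Among the named genes, these alternatives turned the sign of 3 that were not called. CYP7A1 was -0.142 without both near-identical libraries with the identifier block, -0.224 within the 3 numbers and -0.083 without the unbalanced number and both libraries. TGFB1 was -0.066 with limma-voom, -0.124 without the unbalanced number and -0.184 without it and both libraries. SOX9 was -0.366 with limma-voom, -0.072 without both libraries (-0.074 by DESeq2), -0.130 within the 3 numbers, -0.103 without the unbalanced number and both libraries, and -0.266 (without ENT-sham replicate 2) to 0.332 without 1 library. Genes near 0 counts per library, such as EPO and LPL, are limited by depth.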

Other observations

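Some further genes were looked up after their values were seen. TREM2, a lipid-sensing receptor of macrophages (chromosome 7, 36465921 to 36471509), had a median of 0.0246 CPM in ENT-sham pigs with 1.06 CPM in the near-identical library, and 0.988 CPM in ENT-BDL livers, against 0.664 and 0.983 CPM in SLE-sham and SLE-BDL livers. Its SLE minus ENT difference was -2.53 ± 0.71 (edgeR, adjusted p = 0.0392), and -4.28 without both near-identical libraries, and MLE pigs had a called rise of 4.10. CD9 and FABP5, looked up in the same step, had no called difference, at -0.16 ± 0.22 (edgeR, adjusted p = 0.81) and -0.57 ± 0.46 (adjusted p = 0.619). Of the 10 Kupffer cell and macrophage markers, 0 had a called difference, 7 had a positive one, and their median was 0.16.

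LOC106504547, annotated as serpin A3-8, a relative of an acute-phase protease inhibitor (chromosome 7, 115830305 to 115836430), had medians of 218.6 and 99.2 CPM in ENT-sham and ENT-BDL livers and of 186.9 and 649.8 CPM in SLE-sham and SLE-BDL livers, with values from 17.3 to 7739.1 CPM over these pigs. Its SLE minus ENT difference was 4.08 ± 1.05 (edgeR, adjusted p = 0.0226), with responses of 2.54 in SLE (adjusted p = 0.0419) and -1.55 in ENT pigs (adjusted p = 0.138). Like other members of a gene family, it may share reads with close copies.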
